A study of Mus musculus with 12 samples.

Results

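The genes described here are 37 skeletal muscle genes that build the sarcomere, the contractile unit of striated muscle, or handle its calcium and energy. They were taken by symbol from a table of 21936 genes measured by RNA sequencing in mouse eyelids, and all 37 were found in it. Of these, 32 were above 1 FPKM (a level scaled by exon length and by sequencing depth) in at least 2 libraries and entered the tests. The other 5, Tnni1, Tnnc1, Tnnc2, Myl2 and Myl3, were below that level.

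Male C57BL/6 mice, 6 to 8 weeks old at the start and kept under 12 h of light a day, ate a standard diet with 10 kcal% fat (control, CTL) or a diet with 60 kcal% fat (high-fat, HF). Tissue was taken at 9h (9 am), 15h (3 pm) or 21h (9 pm), which gave 6 groups of 2 libraries: CTL at 9h, 15h and 21h, and HF at 9h, 15h and 21h. The sample labels give 3 months of diet and the series text 4 months, and the difference was not resolved. Meibomian gland is the tissue given in the sample labels, whereas the series text describes upper and lower eyelids taken whole. No genotype, drug or other agent is named, and all mice are of 1 strain and sex. Nothing states if 1 mouse or several went into a library, and the p-values therefore reflect how far libraries of a group lie apart. The title of the series names diurnal rhythm and hyperlipidemic mice, and the comparisons are accordingly time of day, diet, and the dependence of one on the other.

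In a striated muscle fibre, myosin heads of the thick filament pull on actin of the thin filament once calcium binds the troponin complex. The voltage sensor of the cell membrane opens the release channel of the sarcoplasmic reticulum, and a calcium pump then returns the ion to the store. Fast and slow fibres use different genes for many of these proteins. The eyelid contains the orbicularis oculi, the striated muscle that closes the lid, whose marginal bundles run beside the meibomian glands, and smooth muscle.

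The promoters of 4 members are shown as examples. For Atp2a1 and Cacna1s the fitted difference between 9h and 21h was largest, and Ckm is the muscle creatine kinase. Mylpf is a fast light chain whose difference did not pass the test. Each promoter is the 250 bases before the RefSeq start site on GRCm38.p6, read 5′ to 3′ on the gene's strand. The hexamer CAGCTG is in capitals and stands 1 time in each, so the 4 give no contrast for it. The windows are chr7:126463074-126463323 on the minus strand for Atp2a1, chr1:136052561-136052810 on the plus strand for Cacna1s, chr7:19410844-19411093 on the plus strand for Ckm and chr7:127211358-127211607 on the plus strand for Mylpf.
Atp2a1: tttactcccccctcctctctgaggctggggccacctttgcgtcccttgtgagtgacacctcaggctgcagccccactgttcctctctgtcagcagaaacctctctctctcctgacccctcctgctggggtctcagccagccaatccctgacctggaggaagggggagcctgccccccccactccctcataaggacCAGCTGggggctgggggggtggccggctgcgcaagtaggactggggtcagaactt
Cacna1s: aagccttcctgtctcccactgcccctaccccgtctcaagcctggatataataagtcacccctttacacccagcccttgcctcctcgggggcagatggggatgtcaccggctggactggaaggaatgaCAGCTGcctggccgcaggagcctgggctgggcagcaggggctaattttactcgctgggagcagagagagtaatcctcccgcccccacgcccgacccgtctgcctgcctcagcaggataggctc
Ckm: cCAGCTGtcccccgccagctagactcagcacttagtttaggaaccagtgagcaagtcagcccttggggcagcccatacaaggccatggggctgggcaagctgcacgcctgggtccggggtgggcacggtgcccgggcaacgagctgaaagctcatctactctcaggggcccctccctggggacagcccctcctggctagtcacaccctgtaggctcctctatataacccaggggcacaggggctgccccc
Mylpf: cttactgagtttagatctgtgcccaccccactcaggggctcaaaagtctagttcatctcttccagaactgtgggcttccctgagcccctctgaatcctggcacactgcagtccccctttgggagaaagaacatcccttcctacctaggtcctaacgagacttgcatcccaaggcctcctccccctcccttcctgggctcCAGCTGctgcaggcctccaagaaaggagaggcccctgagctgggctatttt
CAGCTG is 1 form of the E-box CANNTG, the motif that muscle regulatory factors of the MyoD family bind. RefSeq promoters were at hand for 29 of the 37 genes, and CAGCTG stood in 14 of them (48.3%) against 12.8% of all 27025 promoters searched over the same length on both strands. The wider CANNTG, which includes CAGCTG and CACGTG, was in 25 of 29 (86.2%) against 66.0% of all promoters. CACGTG, the E-box that the clock factors CLOCK and BMAL1 bind, was in 1 of 29, that of Actn2, against 6.05% of all promoters. The longer MEF2 and CArG motifs were in 3 and 4 of the 29, against 3.01% and 1.40% of all promoters, and TATAAA in 3 of 29 against 13.0%. A match is a run of letters in a window and no measured binding site.

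Fast-fibre forms of the troponin and light chain families were far above their slow counterparts. Acta1, the actin of skeletal muscle thin filaments (GRCm38 chromosome 8, 123891769 to 123894751, minus strand), had the highest mean level of the 37 genes, 1247 FPKM. It measured 2067 and 1698 FPKM in the control and 1496 and 2083 in the high-fat libraries at 9h, 1329 and 925 against 863 and 847 at 15h, and 1208 and 721 against 814 and 914 at 21h. In each pair of values the library with the lower number in its label comes first (control 2 and 3 and high-fat 6 and 7 at 9h, control 2 and 3 and high-fat 2 and 6 at 15h, control 1 and 2 and high-fat 3 and 6 at 21h). All 4 libraries at 9h lay above the others, and the later times overlapped. The fast troponins followed, with Tnnt3 (the tropomyosin-binding subunit) at a mean of 835 FPKM and Tnni2 (the inhibitory subunit) at 435 FPKM, together with the fast light chains Mylpf at 537 FPKM and Myl1 at 382 FPKM and with Pvalb, a cytosolic calcium buffer of fast fibres, at 530.1 FPKM. The myosin heavy chains, which are not among the 37, had Myh4 of the fastest fibres at a mean of 505 FPKM, Myh1 at 44.3 FPKM and Myh2 at 7.14 FPKM, whereas Myh7 of slow fibres averaged 0.0107 FPKM.

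The slow forms were near the limit of detection in all but 2 cases. Tnni1, the slow inhibitory troponin, had 7 to 27 reads per library, and its level was 0.360 and 0.248 FPKM in the control and 0.271 and 0.119 in the high-fat libraries at 9h, 0.375 and 0.316 against 0.218 and 0.373 at 15h, and 0.205 and 0.473 against 0.532 and 0.234 at 21h. Tnnc1, the calcium-binding troponin of slow and cardiac muscle, had 1 to 8 reads, with 0.113 and 0.0537 FPKM in the control and 0.0551 and 0.294 in the high-fat libraries at 9h, 0.371 and 0.182 against 0.188 and 0.193 at 15h, and 0.387 and 0.242 against 0.545 and 0.116 at 21h. The values of both genes overlapped between times and between diets. Myl2, the slow regulatory light chain, had 0 to 17 reads per library, 0.513 and 0.0287 FPKM in the control and 0.206 and 0.188 in the high-fat libraries at 9h, 0.198 and 0.162 against 0.0335 and 0 at 15h, and 0.344 and 0 against 0 and 0.123 at 21h. Myl3, the slow essential light chain and the lowest of the 37 genes (mean 0.0304 FPKM), had 12 reads in all 12 libraries together and 0 to 3 in each. Its values were 0 and 0.0547 FPKM in the control and 0.0561 and 0 in the high-fat libraries at 9h, 0 and 0.0310 against 0 and 0 at 15h, and 0.0657 and 0 against 0.0694 and 0.0883 at 21h. With so few reads these 4 genes fell below the filter, and differences in their levels were not tested in the limma fit.

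Tnnc2, the calcium-binding subunit of the fast troponin complex, was the exception among the fast forms. It had 15 reads in all and 0 to 8 per library, which corresponds to 0.147 and 0 FPKM in the control and 0 and 0 in the high-fat libraries at 9h, 0.161 and 0 against 0.653 and 0 at 15h, and 0.252 and 0 against 0 and 0 at 21h. Of its 800 exon bases in GENCODE M21, 592 (74%) also belong to Ube2c on the opposite strand, and 208 bases are its own. The strand setting of the counting is not given in the sources used here, so reads of the 2 genes cannot be told apart and the Tnnc2 level is uncertain. The partner subunits Tnnt3 and Tnni2 share no exon base with another gene. Among the others, Mb shares 31.9% of its exon bases with other genes, Atp2a1 21.9% (Rabep2), Cacna1s 20% and Ckm 15.5%, and these carry the same uncertainty to a smaller degree.

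**Figure D1:**
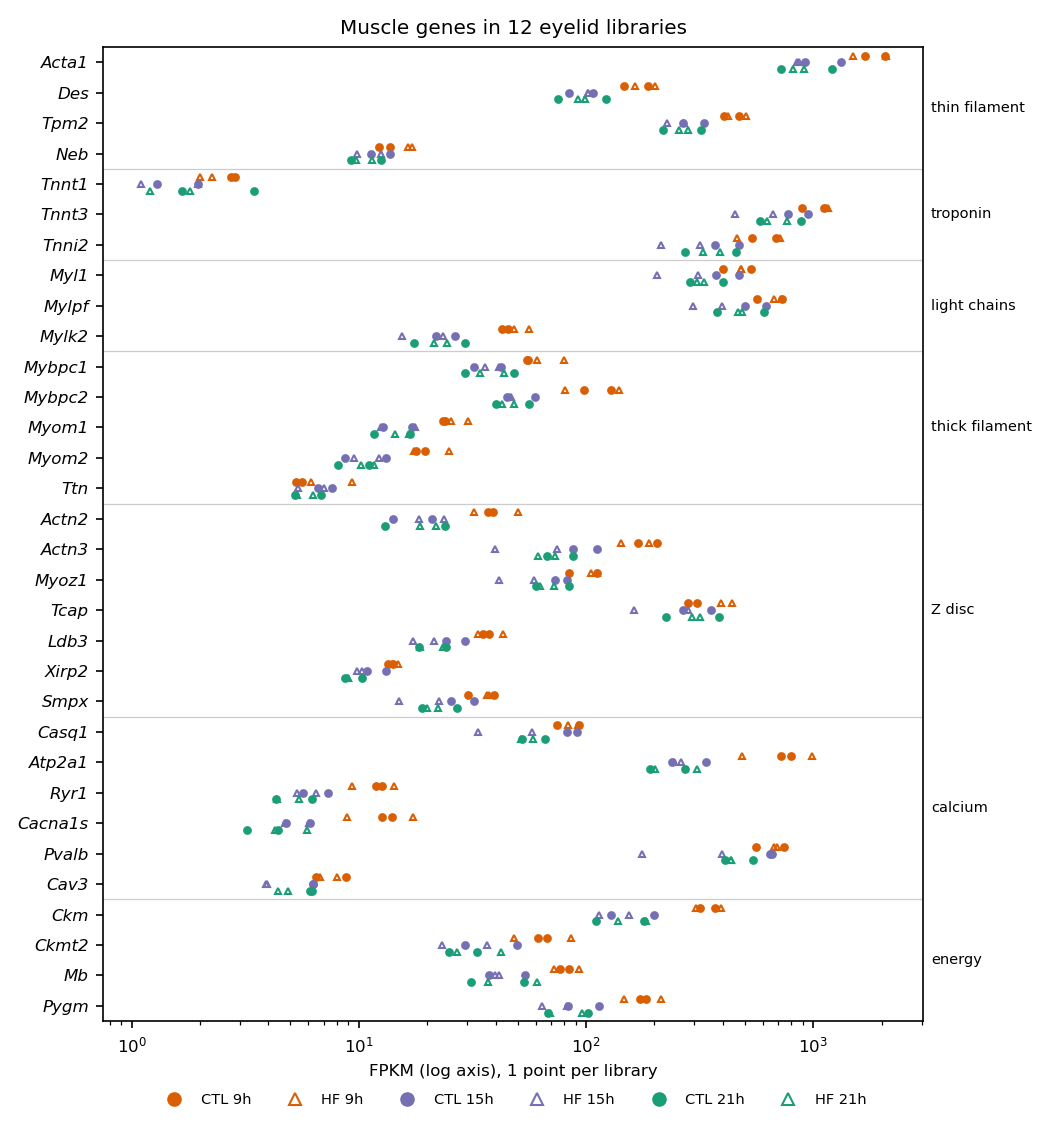
Level of each of the 32 tested muscle genes in FPKM (log axis), 1 point per library, with colour for the time, filled circles for control and open triangles for high-fat libraries, and genes grouped by role. The 9h libraries lie to the right of the later ones for most genes, and Ttn and Tcap are among those that overlap.

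Sequencing depth, recovered from the steps between FPKM values, was 16315011 to 17867452 reads per library at 9h, 14881736 to 15785015 at 15h and 14079167 to 16609665 at 21h, so the 9h libraries with the higher muscle values were also deeper than most of the others. FPKM values are scaled by depth, and a remaining part of depth in the results was not tested. Of all reads in a library, the 37 genes took 1.70% to 2.16% at 9h, 0.820% to 1.40% at 15h and 0.852% to 1.27% at 21h. Among the 32 tested genes, high-fat library 7 at 9h had the highest value for 21 and control library 2 at 9h for 8. Control library 2 at 21h had the lowest value for 16, and high-fat library 6 at 15h for 14.

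Most of the muscle genes were lower in the evening than in the morning. Averaged over diets, 21 of the 32 tested genes were lower at 21h than at 9h at an adjusted p under 0.05 and none was higher, against 3.43% of all 13228 genes tested that were called lower (6.02% called in either direction; limma with Benjamini-Hochberg adjustment over all genes tested). The fitted difference was negative for 32 of 32 genes, against 40.1% of all genes, 29 had an unadjusted p under 0.05 (background for lower 11.1%), and the median difference was -0.76 on the log2(FPKM + 1) scale, against 0.05 over all genes. All 4 libraries at 21h were below all 4 at 9h for 26 of the 32, against 7.87% of all genes. The members were chosen with earlier results of these data known, so these shares describe the list and do not test it. In bulk tissue, a smaller share of muscle fibres in a sample and less RNA per fibre cannot be told apart. The call depends on single libraries. With 1 library left out, the count of members called and the count of all genes called both moved widely, so this dependence is not particular to the members. The ranges of both counts are given in the closing section. The median difference of the members was between -0.89 (without control library 1 at 21h) and -0.62 (without control library 2 at 21h).

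Of the 6 genes of calcium handling and the membrane, 4 were called lower at 21h, among them Atp2a1 and Cacna1s with the largest differences of the 32 tested genes. Atp2a1, the SERCA1 pump that returns calcium to the sarcoplasmic reticulum in fast fibres, measured 800.0 and 722 FPKM in the control and 489 and 986 in the high-fat libraries at 9h, 339 and 239 against 263 and 244 at 15h, and 272 and 192 against 202 and 308 at 21h. The 9h libraries stood above every later library, with high-fat library 6 the lowest of them. The difference between 21h and 9h was -1.60 ± 0.24 (SE; limma adjusted p = 0.0218), and the mean level at 21h was 0.325 of that at 9h. Cacna1s, the voltage sensor of the membrane (GRCm38 chromosome 1, 136052750 to 136119822, plus strand), gave 14.02 and 12.6 FPKM in the control and 8.89 and 17.2 in the high-fat libraries at 9h, 6.07 and 4.77 against 6.05 and 4.71 at 15h, and 4.41 and 3.21 against 4.28 and 5.94 at 21h. Its groups did not overlap between 9h and 21h, and the difference was -1.37 ± 0.19 (SE; adjusted p = 0.0218). Ryr1, the calcium release channel that the voltage sensor opens, read 12.7 and 11.8 FPKM in the control and 9.30 and 14.2 in the high-fat libraries at 9h, 7.31 and 5.68 against 6.47 and 5.37 at 15h, and 6.20 and 4.32 against 4.35 and 5.47 at 21h. The lowest 9h library was again high-fat library 6, still above all libraries of 15h and 21h, and the difference at 21h was -1.09 ± 0.15 (SE; adjusted p = 0.0218). Cav3, the caveolin of muscle membranes, was lower by -0.41 ± 0.10 on the same scale (adjusted p = 0.0416). Casq1, the calsequestrin that stores calcium inside the reticulum, and Pvalb did not pass, at -0.58 (adjusted p = 0.0648) and -0.55 (adjusted p = 0.147).

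At the Z disc, where thin filaments are anchored, 5 of 7 genes were called lower at 21h. Actn3, the alpha-actinin of fast fibres, was measured at 205 and 170.0 FPKM in the control and 142 and 189 in the high-fat libraries at 9h, 112 and 87.9 against 74.4 and 39.8 at 15h, and 87.6 and 67.3 against 61.6 and 73.2 at 21h. Every 9h library exceeded every later one, and the difference at 21h was -1.27 ± 0.20 (SE; adjusted p = 0.0218). Actn2, the alpha-actinin found in all fibres, had 39.1 and 37.1 FPKM in the control and 32.1 and 50.1 in the high-fat libraries at 9h, 20.9 and 14.2 against 18.4 and 23.7 at 15h, and 24.0 and 13.0 against 18.6 and 21.9 at 21h, a difference of -1.01 (adjusted p = 0.0331). Xirp2, an actin-binding repeat protein of the Z disc region, was 14.1 and 13.4 FPKM in the control and 14.1 and 14.9 in the high-fat libraries at 9h, 13.2 and 10.9 against 10.3 and 9.83 at 15h, and 10.3 and 8.68 against 8.92 and 8.95 at 21h. Its spread among the 4 libraries at 9h was small (14.1 ± 0.617 FPKM, SD, n = 4), and although its difference was among the smaller ones called, -0.57 ± 0.08, its adjusted p was 0.0218. Ldb3, a PDZ-LIM protein that binds alpha-actinin, came to 37.2 and 35.1 FPKM in the control and 33.5 and 43.1 in the high-fat libraries at 9h, 29.4 and 24.1 against 21.4 and 17.2 at 15h, and 24.2 and 18.4 against 18.5 and 23.5 at 21h. No 21h value reached the lowest 9h value, and the difference was -0.79 ± 0.13 (adjusted p = 0.0221). Smpx, a small muscle protein of the costamere, was also called (-0.68). Myoz1, which ties calcineurin to the Z disc of fast fibres, did not pass at -0.56, with 112 and 83.8 FPKM in the control and 105 and 111 in the high-fat libraries at 9h, 82.2 and 73.0 against 59.1 and 41.5 at 15h, and 84.2 and 60.4 against 62.6 and 72.4 at 21h. Tcap, the cap that joins the ends of titin at the Z disc, had 309.6 and 283 FPKM in the control and 394 and 441 in the high-fat libraries at 9h, 354 and 266 against 281 and 162 at 15h, and 386 and 226 against 318 and 294 at 21h. Its times overlapped, and its difference of -0.22 did not pass (adjusted p = 0.501).

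In the thick filament and M line, 4 of 5 genes were called. Mybpc2, the myosin-binding protein C of fast fibres, measured 129 and 97.5 FPKM in the control and 80.7 and 139 in the high-fat libraries at 9h, 59.8 and 44.9 against 46.8 and 46.1 at 15h, and 56.3 and 40.3 against 42.8 and 48.0 at 21h. All later values lay below the lowest 9h value, at -1.21 ± 0.19 for 21h (adjusted p = 0.0218). Its slow paralogue Mybpc1 had 54.8 and 55.4 FPKM in the control and 60.7 and 80.3 in the high-fat libraries at 9h, 42.2 and 32.0 against 41.5 and 35.9 at 15h, and 48.2 and 29.2 against 34.0 and 43.5 at 21h, and was called with the smaller difference of -0.69 ± 0.17 (adjusted p = 0.0482). The M-line proteins Myom1 and Myom2, which crosslink thick filaments, were lower by -0.76 and -0.89. Myom2 read 17.9 and 19.5 FPKM in the control and 17.5 and 24.8 in the high-fat libraries at 9h, 13.2 and 8.73 against 12.3 and 9.51 at 15h, and 11.1 and 8.07 against 10.2 and 11.6 at 21h. Ttn, the giant spring that spans from Z disc to M line, stood apart: it measured 5.28 and 5.60 FPKM in the control and 9.33 and 6.15 in the high-fat libraries at 9h, 7.59 and 6.62 against 6.99 and 5.38 at 15h, and 6.82 and 5.22 against 5.33 and 6.30 at 21h, with overlapping times and a difference of -0.11 (adjusted p = 0.628).

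Among light chains and their kinase, the kinase was called and the chains were not. Mylk2, the skeletal myosin light chain kinase, had 42.6 and 45.5 FPKM in the control and 48.1 and 56.3 in the high-fat libraries at 9h, 26.4 and 21.9 against 23.4 and 15.6 at 15h, and 29.3 and 17.4 against 21.4 and 24.6 at 21h. The 9h libraries were all above the rest, and the difference at 21h was -1.04 ± 0.17 (SE; adjusted p = 0.0221). The fast essential light chain Myl1 came to 531 and 401 FPKM in the control and 480.1 and 480.1 in the high-fat libraries at 9h, 474 and 374 against 312 and 206 at 15h, and 400.1 and 288 against 308 and 329.9 at 21h. For Mylpf, the fast regulatory light chain, the values were 731 and 567 FPKM in the control and 673 and 719 in the high-fat libraries at 9h, 619.7 and 500.2 against 397 and 297 at 15h, and 606 and 377 against 469 and 489 at 21h. Both had negative differences, -0.52 and -0.48, that did not pass (adjusted p = 0.0895 and 0.106). Mylk2 exceeded them in the size of its difference but has a much lower level.

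Troponins were the group without a call: of 6 genes, 3 were tested and none passed. Tnnt3 measured 1120.4 and 896 FPKM in the control and 1135 and 1164 in the high-fat libraries at 9h, 949.9 and 778 against 662 and 451 at 15h, and 879.7 and 586 against 625 and 768 at 21h, which is a difference at 21h of -0.60 (adjusted p = 0.0699). For Tnni2 the libraries gave 687 and 536 FPKM in the control and 461 and 712 in the high-fat libraries at 9h, 473 and 371 against 318 and 214 at 15h, and 459.6 and 273 against 328 and 389 at 21h, a difference of -0.73 (adjusted p = 0.0745). Tnnt1, the slow troponin T, was just above the filter with 2.73 and 2.84 FPKM in the control and 2.26 and 1.9999 in the high-fat libraries at 9h, 1.96 and 1.29 against 1.10 and 1.95 at 15h, and 3.44 and 1.66 against 1.80 and 1.20 at 21h. Its highest value was in control library 1 at 21h, and its difference of -0.24 did not pass (adjusted p = 0.420). In the thin filament and cytoskeleton, Acta1 (-1.02 ± 0.20, adjusted p = 0.0285), the tropomyosin gene Tpm2 (-0.75) and the intermediate filament gene Des (-0.85) were called. Neb, which encodes the ruler of thin filament length, was not, at -0.44 (adjusted p = 0.0601), with 12.2 and 13.8 FPKM in the control and 17.1 and 16.4 in the high-fat libraries at 9h, 13.7 and 11.3 against 12.5 and 9.77 at 15h, and 12.5 and 9.21 against 9.68 and 11.5 at 21h.

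All 4 genes of energy and oxygen supply were called lower at 21h. Ckm, the creatine kinase that regenerates ATP beside the filaments, was 369 and 319 FPKM in the control and 305 and 395 in the high-fat libraries at 9h, 198 and 129 against 155 and 114 at 15h, and 181 and 110.3 against 138 and 184 at 21h. The lowest 9h value was above the highest later one, and the difference was -1.20 ± 0.20 (adjusted p = 0.0225). Its mitochondrial partner Ckmt2 was lower by -1.02, and Pygm, the muscle glycogen phosphorylase, by -1.10. Mb, the oxygen store myoglobin, measured 84.3 and 76.7 FPKM in the control and 72.0 and 93.1 in the high-fat libraries at 9h, 53.8 and 37.4 against 41.2 and 39.7 at 15h, and 53.1 and 31.3 against 37.1 and 60.8 at 21h, and its difference was -0.87 (adjusted p = 0.0437).

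**Figure D2:**
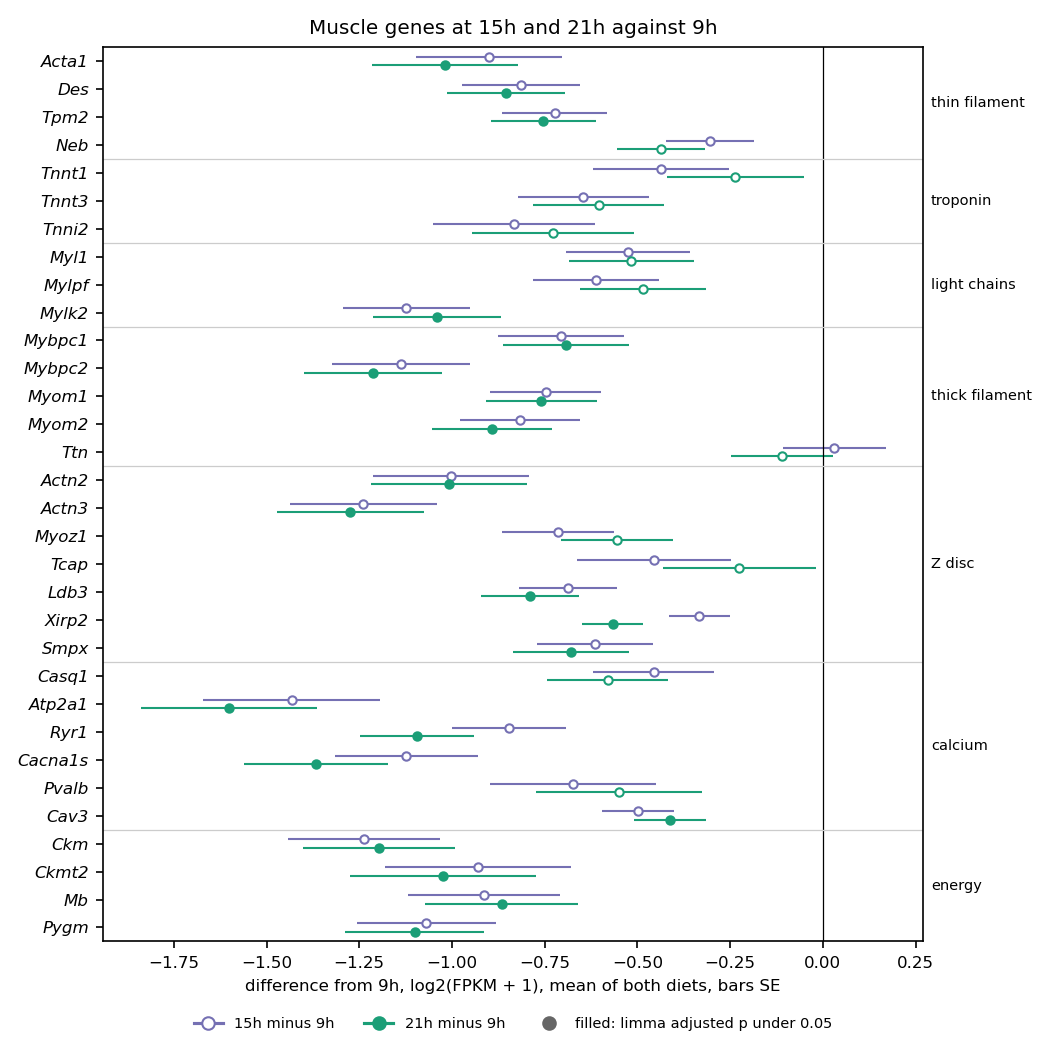
Fitted difference of each tested muscle gene at 15h and at 21h from 9h in log2(FPKM + 1), averaged over both diets, with bars for the SE and filled points for an adjusted p under 0.05 in limma. At 21h all 32 points are below 0 and 21 are filled, Atp2a1 lying farthest out at -1.60 and Ttn nearest to 0 at -0.11.

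By 15h the values were already near those of 21h, but no gene passed the adjusted threshold. Against 9h, 0 of 32 genes were called (background 0.0227%), 30 were lower at an unadjusted p under 0.05 (background 8.87%), and limma-voom on the recovered reads called 0 and gave 31 at an unadjusted p under 0.05. The median difference was -0.74, and 31 of 32 were negative (39.3% of all genes), Ttn being the exception at 0.03. All 4 libraries at 15h lay below all 4 at 9h for 21 genes, against 4.69% of all genes. The smallest adjusted p was 0.0709, for genes that include Mylk2 (-1.12), Actn3 (-1.24), Mybpc2 (-1.14), Ckm (-1.24) and Atp2a1 (-1.43). The count of 0 changed in 4 of the 12 fits with 1 library left out, most without high-fat library 6 at 9h. The share of all genes called in those fits is not given here, so the change is not read as a result about the members. The median difference was between -0.85 (without high-fat library 2 at 15h) and -0.66 (without high-fat library 6 at 15h). Both comparisons share the 9h libraries.

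Between 15h and 21h no difference passed. None of the 32 was called by limma (background 0%) or by limma-voom, and 1, Xirp2, had an unadjusted p under 0.05 (background for lower 1.62%), with a difference of -0.23 ± 0.08. The next smallest p-values belonged to Ryr1 (-0.25), Cacna1s (-0.24), Neb (-0.13) and Tcap (0.23), and the median difference of the 32 was -0.03.

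Within each diet most fitted differences from 9h were negative, without a call. In controls, an F test over the 3 times called 0 of 32 (background 0.0227%), with 18 at an unadjusted p under 0.05 (background 18.3%) and 0 called by limma-voom. The smallest p-values were those of Cacna1s, Atp2a1, Ryr1, Mybpc2 and Ckm, with differences at 21h of -1.58, -1.73, -1.10, -1.22 and -1.27 and an adjusted p from 0.172 to 0.175. The count in controls changed without high-fat library 6 or 7 at 9h, and the share of all genes called in those fits is not given here. In high-fat mice 0 of 32 were called (background 0%), 30 had an unadjusted p under 0.05 (background 8.73%), and limma-voom called 0. Mylk2, Actn3, Cav3, Xirp2 and Ldb3 led there, each with an adjusted p of 0.284, and their differences at 15h were -1.40, -1.57, -0.77, -0.48 and -0.95. At 21h the difference from 9h was negative for 31 of 32 genes in controls (median -0.74) and for 32 of 32 in high-fat mice (median -0.79). At 15h it was negative for 28 in controls (median -0.56) and for 32 in high-fat mice (median -0.97). This gap between diets was tested gene by gene in the interaction given further on. The share of all genes with a negative value within each diet is not given here, so these sign counts have no background to be read against.

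Many other genes of striated muscle were lower at 21h as well. The counts called in these lists stand beside the 3.43% of all genes called lower. The lists too were chosen with earlier results of these data known. Of 34 tested genes in a list of further sarcomere and Z-disc genes, 20 were called lower and none higher; among those with the smallest p were Myoz3 (-1.02) and Klhl40 (-0.81). In excitation-contraction coupling, 15 of 28 were called lower, among them Jph2 (-0.93), which holds membrane and reticulum together, Camk2a (-0.80) and Srl (-1.02). Of 18 genes in a muscle energy list, which also holds the nonmuscle alpha-actinin Actn4, 11 were called lower. Ampd1 (-1.18), Pfkm (-0.95) and Gys1 (-0.67) led them. A list of 10 myosin heavy chains, which also holds the nonmuscle form Myh14, had 4 tested and 2 called lower, Myh4 (-0.89) and Myh2 (-1.33). In the dystrophin complex and muscle membrane list, 1 of 11 was called lower, Trim72 (-0.65). In a list this short a count of 1 is near the share of all genes. Set against the mean of the 34 other sarcomere genes in each library, 7 of the 32 members were called lower at 21h: Atp2a1 (-0.95), Cacna1s (-0.71), Actn3 (-0.62), Mybpc2 (-0.56), Ckm (-0.54), Pygm (-0.45) and Ryr1 (-0.44). On that relative scale 20 of 32 were negative and the median was -0.10. Only the members were centred in this way and all other genes kept their own scale, so the count of 7 has no share of all genes to be read against, and it is given as a description.

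For markers of other eyelid cells, the counts called between 9h and 21h stand beside the 6.02% of all genes called in either direction and the 3.43% called lower, and in lists this short a count of 0 or 1 is near that share. The summed level of 11 smooth muscle markers was 171 to 315 FPKM at 9h and 195 to 237 FPKM at 21h, and 1 of its 8 tested genes was called lower, Synm (-0.62), a filament gene also expressed in striated muscle, while 3 of the 8 had an unadjusted p under 0.05, 1 of them, Myh11 (0.66), with a positive value. The 12 keratinocyte markers summed to 4706 to 5619 FPKM at 9h and 4545 to 5913 FPKM at 21h. The 15 meibocyte and sebocyte markers summed to 7389 to 11523 FPKM at 9h and 6845 to 10062 FPKM at 21h. By limma 0 of the 12 and 14 tested were called. An unadjusted p under 0.05 was found for 0 keratinocyte and 2 meibocyte and sebocyte markers, 1 higher and 1 lower. Of 10 cardiac markers, 6 averaged under 1 FPKM, and the heart myosin Myh6 was at 0.0587 FPKM. None of the 5 tested was called, and 2 had an unadjusted p under 0.05, 1 higher and 1 lower. No fibroblast, adipocyte or brown adipocyte marker was called either (1 of 8, 0 of 9 and 1 of 4 with an unadjusted p under 0.05). Of 5 tested satellite cell markers 1 was called, Myod1 (-1.03, limma adjusted p = 0.00436), the regulator of muscle differentiation. An unadjusted p under 0.05 was found for 3 of the 5, 2 of them lower and 1 higher (0.41). The sums of keratinocyte and meibocyte markers overlapped between 9h and 21h, whereas the other sarcomere genes summed to 701 to 829 FPKM at 9h and 425 to 605 FPKM at 21h, without overlap. The part of other cell types in the muscle values was not tested.

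Diet had no called effect on the muscle genes. Averaged over times, 0 of 32 were called (background 1.98%), 4 were lower in high-fat mice at an unadjusted p under 0.05 (background for lower 9.4%), and limma-voom called 0 with 4 at an unadjusted p under 0.05. The median difference, high-fat minus control, was -0.08, and 22 of 32 were negative against 52% of all genes. The mean log2(FPKM + 1) of the members per library was 5.23 ± 0.35 in controls and 5.14 ± 0.43 in high-fat mice (SD, n = 6 each).

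Cav3 had the smallest p for diet. It measured 8.75 and 6.47 FPKM in the control and 8.03 and 6.77 in the high-fat libraries at 9h, 6.28 and 6.29 against 3.89 and 3.94 at 15h, and 6.21 and 6.10 against 4.41 and 4.89 at 21h. High-fat libraries were below controls at 15h and 21h, and overlapped with them at 9h. The averaged difference was -0.31 ± 0.08 (SE; adjusted p = 0.0987), and it passed without control library 3 at 9h (adjusted p = 0.0368, against 0.0368 to 0.269 over the 12 libraries left out in turn). The other 3 genes under an unadjusted 0.05 were fast-fibre forms: Actn3 (-0.41, adjusted p = 0.299), Casq1 (-0.33, adjusted p = 0.313) and Pvalb (-0.45, adjusted p = 0.313), followed by Myl1 (-0.25, adjusted p = 0.447). Pvalb passed without high-fat library 2 at 15h, at -0.64 (adjusted p = 0.0211, against 0.0211 to 0.663 over the 12).

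The largest fitted diet differences were at 15h. There, 0 of 32 genes were called (background 0.0605%), 10 were lower at an unadjusted p under 0.05 (background for lower 8.35%), and limma-voom called 0 and gave 9. Both high-fat libraries lay below both controls for 14 genes, against 26.7% of all genes, so that count is to be read against a high background. The median difference was -0.29, and 27 of 32 were negative against 56.7% of all genes. Pvalb had 742 and 561 FPKM in the control and 692 and 671 in the high-fat libraries at 9h, 661 and 643 against 395 and 176 at 15h, and 541 and 411 against 433 and 435 at 21h. High-fat library 6 at 15h was the lowest of all 12, and the difference at 15h was -1.30 ± 0.32 (SE; adjusted p = 0.188). Casq1 gave 93.4 and 74.2 FPKM in the control and 82.9 and 92.7 in the high-fat libraries at 9h, 91.2 and 82.6 against 58.0 and 33.6 at 15h, and 66.1 and 52.2 against 51.7 and 58.2 at 21h. The same library was lowest, the 15h controls were as high as the 9h libraries, and the difference at 15h was -0.96 ± 0.23 (adjusted p = 0.188). Cav3 differed by -0.57 ± 0.14 (adjusted p = 0.188), Myl1 by -0.73 (adjusted p = 0.298) and Actn3 by -0.85 (adjusted p = 0.2998). Without high-fat library 2 at 15h, Casq1 was at -1.34 and Pvalb at -1.88. Without high-fat library 6 at 15h they were at -0.57 and -0.72, so their size depends on single libraries. The median of the 32 was between -0.51 (without control library 3 at 15h) and -0.11 (without control library 2 at 15h).

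Among the members, the forms of fast fibres had a negative diet difference at 15h in 11 of 11 tested cases (56.7% of all genes). Of these, 7 had an unadjusted p under 0.05 (background for lower 8.35%), and the median was -0.68. The 19 tested genes without a fast or slow form had a median of -0.23, with 3 at an unadjusted p under 0.05. Atp2a1 (-0.17) and Mybpc2 (-0.15), both fast forms, were near the other group. The 2 tested slow forms, Tnnt1 and Mybpc1, were at -0.07 and 0.07. The values of the fast forms lean on high-fat library 6 at 15h, the lowest library for 14 tested genes. Without it Actn3 was at -0.41 and Myl1 at -0.43, and without high-fat library 2 at 15h they were at -1.30 and -1.03. Outside the members, 4 myosin heavy chains were tested, the fast forms Myh1, Myh2 and Myh4 and the nonmuscle form Myh14. Their diet difference at 15h was positive for 3 of the 4, with a median of 0.17, and 0 had an unadjusted p under 0.05 in limma. At the same time the fibroblast markers had a median of -0.56, negative in 8 of 8, and the meibocyte and sebocyte markers one of 0.38, positive in 14 of 14. The fibroblast sum was 829 and 860.5 FPKM in the controls and 402 and 768 FPKM in the high-fat libraries, and the part of such markers in the muscle values was not tested.

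At the other times the diets overlapped for most genes. At 9h 0 of 32 genes were called (background 0%) and 0 had an unadjusted p under 0.05 (background 7.22%), while limma-voom called 0 and gave 1. The smallest p-values were those of Ttn (0.42), Neb (0.34), Tcap (0.49), Mybpc1 (0.34) and Tnnt1 (-0.27), with an adjusted p from 0.730 to 0.850. Both high-fat libraries were above both controls for 7 genes (background 15%) and below for 1 (background 14.8%). At 21h 0 were called (background 0.00756%) and 1, Cav3 (-0.34), had an unadjusted p under 0.05 (background 5.37%), with 0 called and 0 under 0.05 by limma-voom. Tnnt1 (-0.47), Cacna1s (0.34), Myom2 (0.18) and Mb (0.22) followed, and the median was -0.02. That median was -0.31 without control library 2 at 21h and 0.26 without control library 1.

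Whether the diet difference itself changed with time was tested by an interaction. The limma F test called 0 of 32 genes (background 0%), and 2 had an unadjusted p under 0.05 (background 3.06%), Casq1 and Pvalb. The smallest adjusted p in limma was 0.999. By limma-voom 0 passed as well, and 2 had an unadjusted p under 0.05. Relative to 9h, the diet difference at 15h moved by -1.03 for Casq1, by -1.38 for Pvalb, by -0.54 for Cav3, by -0.79 for Myoz1 and by -0.81 for Mylpf.

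**Figure D3:**
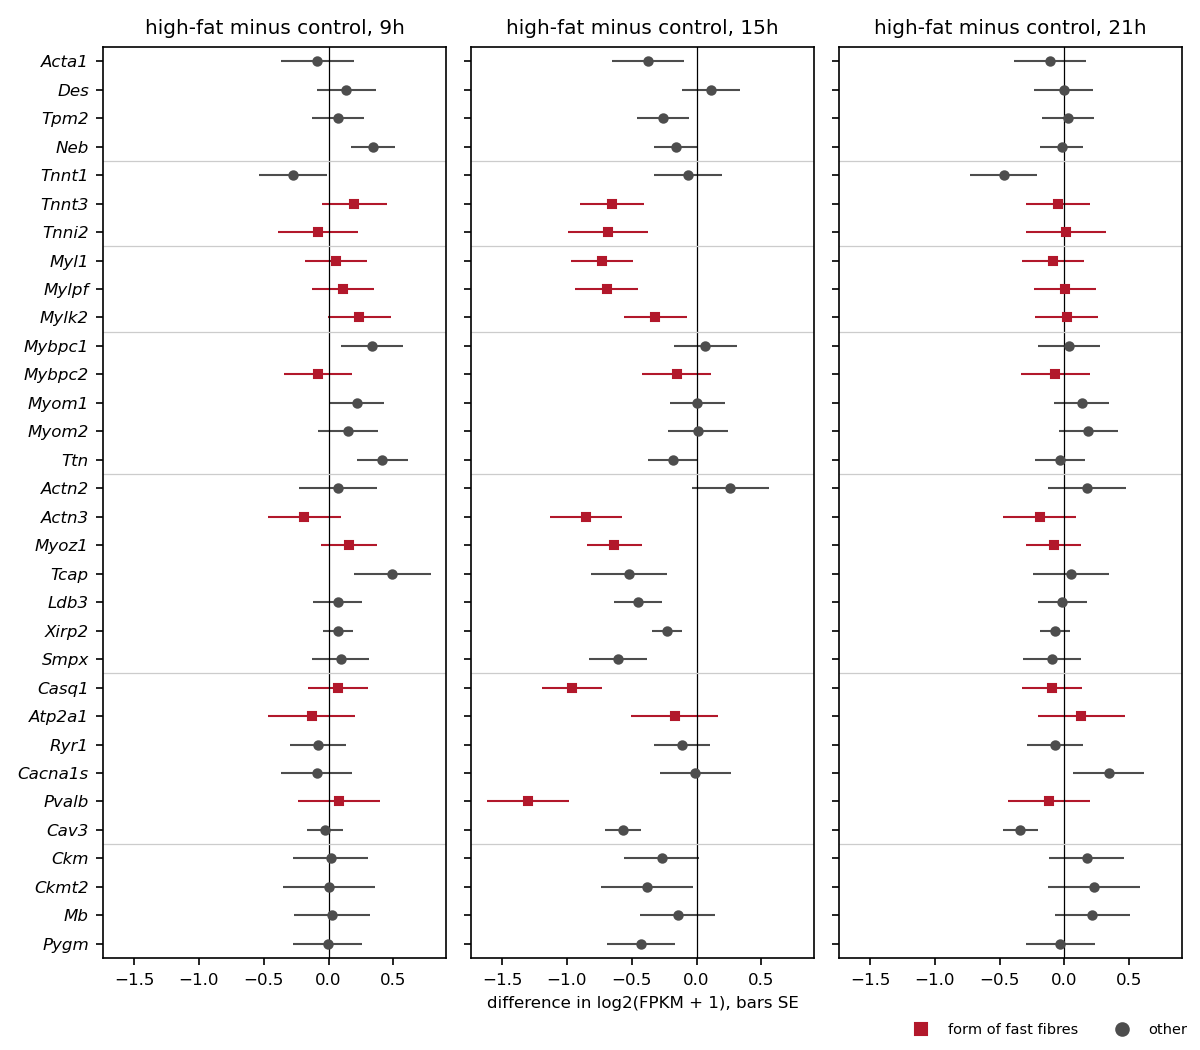
Fitted difference between high-fat and control libraries in log2(FPKM + 1) at 9h, 15h and 21h for the 32 tested muscle genes, with bars for the SE, red squares for forms of fast fibres and grey circles for the others. At 15h all 11 red squares are below 0, Pvalb farthest at -1.30, and at 9h and 21h the points lie on both sides of 0; no point passed the adjusted threshold.

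A ratio of 2 paralogues within a library does not depend on how much muscle RNA the library holds, as long as both are well above 0. Over 7 pairs, 14 tests were made, exact permutations of the diet labels within times or of the time labels within diets, 2-sided and adjusted by Benjamini-Hochberg over the 14. The log2 ratio of Mybpc1 to Mybpc2 was -1.22 and -0.80 in the controls and -0.41 and -0.79 in the high-fat libraries at 9h. At 15h it was -0.49 and -0.48 against -0.17 and -0.35, and at 21h -0.22 and -0.45 against -0.32 and -0.14. The ratio was 0.52 higher at 21h than at 9h (exact permutation p = 0.00296, adjusted p = 0.0415). High-fat library 6 at 9h lay within the range of the later libraries. When 1 library was left out, 10 of 12 fits no longer passed, with an adjusted p of up to 0.389. For diet the ratio differed by 0.25 (exact permutation p = 0.0278, adjusted p = 0.130).

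The ratio of Actn2 to Actn3 was higher in high-fat libraries at each time. It was -2.36 and -2.17 in controls against -2.12 and -1.89 in high-fat libraries at 9h, -2.36 and -2.55 against -1.96 and -0.72 at 15h, and -1.82 and -2.28 against -1.68 and -1.70 at 21h. Both high-fat libraries exceeded both controls at all 3 times. The difference was 0.58 (exact permutation p = 0.00926, the smallest that the permutations can give, adjusted p = 0.0648), which did not pass, and it was 0.37 without high-fat library 6 at 15h, the library of the highest ratio. The ratio of Tnni1 to Tnni2 was 0.85 higher at 21h than at 9h (exact permutation over the 3 times, p = 0.0370, adjusted p = 0.130). That of Tnnt1 to Tnnt3 differed by -0.10 between diets (exact permutation, adjusted p = 0.788). With slow forms near 0, the ratios of Tnni1, Myl2 and Myl3 to their partners follow the fast form and the pseudocount, and both Tnnc1 and Tnnc2 are near 0.

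**Figure D4:**
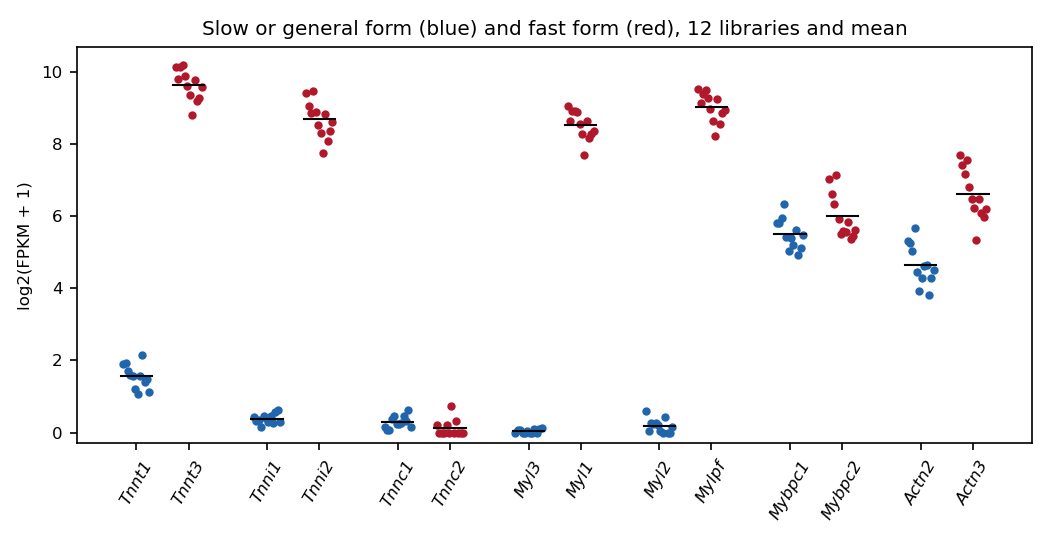
Level of the slow or general form (blue) and the fast form (red) of 7 paralogue pairs in log2(FPKM + 1), with 1 point per library (spread sideways) and a bar at the mean of the 12. The fast form is far above the slow one in the troponin T, troponin I and light chain pairs, whereas Tnnc1 and Tnnc2 are both near 0 and Mybpc1 and Mybpc2 are close together.

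Most of the muscle genes varied together across libraries. Each member was correlated over the 12 libraries with the mean of all other members, tested or not. The correlation was highest for Tpm2 (Pearson r = 0.995), Pygm (0.988), Ldb3 (0.984) and Ckm (0.981). It was lowest among those tested for Ttn (0.267) and Tnnt1 (0.496). The libraries share the time differences described above, so these are descriptions. Among 12619 other genes with a mean of at least 1 FPKM, those most like the members' mean included Slc25a4 (r = 0.993), Hrc (0.993), Tmem38a (0.992), Eno3 (0.988), Adssl1 (0.987), Tpm1 (0.982), Rpl3l (0.981), Myh4 (0.980) and Asb5 (0.978).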

How the data were processed

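RNA was extracted with Trizol and libraries were made with a NEBNext Ultra II kit, per the labels' protocols. The deposited values are FPKM. The authors' processing used HISAT2 2.0.5, HTSeq 0.9.1 and DESeq 1.30.0 with mm9, per the submitters' processing notes; no source used here gives the annotation, strand setting or FPKM step. With merged exon lengths of GENCODE M21 (GRCm38), which holds 21894 of the 21936 IDs, 98.1% of nonzero values were whole reads within 0.02 reads. Coordinates and exon sharing are from that annotation, promoters from RefSeq.

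In R 4.3.3, limma 3.58.1 (trend) was fitted to log2(FPKM + 1) for 13228 genes above 1 FPKM in at least 2 libraries, with 6 group means and 6 residual degrees of freedom, and Benjamini-Hochberg adjustment over all genes; a call is an adjusted p under 0.05. The scale understates changes of low genes. TMM scaling was computed in R, and limma-voom was run on the recovered reads.

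The members and lists were chosen with earlier results of these data known. Genes with values in every library are, per comparison, the called ones up to 8 with the smallest p (5 where fewer than 5 were called), the paralogue pairs, and the highest and lowest member. Other lists give up to 3 genes with the smallest p, and up to 10 genes are named for likeness (a few genes of both kinds are not reported here); Myh1, Myh6, Myh7 and genes that share exons were named after their values were seen. Alternatives were a pseudocount of 0.1, no filter, TMM, values relative to other sarcomere genes, a replicate block, limma-voom, fits of single times and leaving out each library.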

Additional observations from a re-analysis of the deposited data

Results flagged for a closer look

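Within each diet, 3 single values stood apart by a gap test of the highest and lowest of 6 libraries (Dixon's ratio above its critical value), out of 64 sets of a tested member and a diet; chance gives about 1 in 20. Atp2a1 was 986 FPKM in high-fat library 7 at 9h, Cacna1s 17.2 FPKM in the same library, and Cav3 8.75 FPKM in control library 2 at 9h. Both libraries are from 9h, so the time difference enters the gap.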

How the results depend on the processing

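The 2 libraries per group limit every call, and depth limits the 5 members under 1 FPKM. Where 1 library of a group was left out, the other is assumed to vary like the other groups. Member counts below without a count of genes in all have no share of all genes to be read against. Leaving out 1 library gave 0 to 24 members called and 4 to 3373 genes in all for 21h against 9h, and 0 to 22 members for 15h against 9h. It gave 0 to 1 members and 143 to 294 genes in all for the averaged diet difference, 0 to 2 members for diet at 15h, 0 to 4 for time in controls, and a member median of -0.31 to 0.26 for diet at 21h. For the paralogue ratios it gave 0.42 to 0.63 for Mybpc1 to Mybpc2 over time, and for diet -0.28 to 0.073 for Tnnt1 to Tnnt3, -0.12 to 0.13 for Tnnc1 to Tnnc2 and -0.0026 to 0.12 for Myl2 to Mylpf. Diet at 21h reversed for Myom2 and Mb without control library 2 at 21h, and for Mb (-0.13) also without high-fat library 6 at 21h, the ranges over all libraries being -0.024 to 0.39 and -0.16 to 0.59. With a pseudocount of 0.1, Myl2 to Mylpf became -0.37 for diet and -0.22 for time, and Mybpc1 to Mybpc2 over time (0.52) no longer passed; without the low filter 14 members and 429 genes in all were called for 21h against 9h. TMM scaling and limma-voom each called 23 members there, sharing 21 and 20 with the 21 reported. Relative to the other sarcomere genes 7 members were called, the medians were -0.10 (21h) and -0.12 (15h), and Xirp2 reversed to 0.087. The cause was not tested for these.

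Whether library numbers pair the samples is not known. Of 12 same-numbered pairs 3 had a correlation of deviations over 0.1 (range -0.50 to 0.29). With 2 libraries per group the 2 deviations mirror each other, so these correlations are not independent and cannot decide it. A fit with the number as a replicate block keeps 2 residual degrees of freedom and called 0 members and 0 genes for 21h against 9h, where 32 of 32 members stayed negative (median -0.88) and 31 had an unadjusted p under 0.05, and 0 genes for diet averaged over times. Under this block the median for diet at 21h was 0.55, and the averaged diet values of Pvalb (0.079) and Myl1 (0.064) reversed.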
